A study of Homo sapiens with 6 samples.

Results

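Metallothioneins are small cysteine-rich proteins that bind zinc and copper, and SLC30A1 is the zinc exporter of the plasma membrane. Their transcripts were measured in SW-1990, a human pancreatic cancer cell line that was set up from a metastasis to the spleen. Members were 9 of 19775 measured genes: all probe sets annotated to MT1E, MT1F, MT1G, MT1H, MT1M, MT1X, MT2A, MTF1 or SLC30A1, which gave 17 of 54675 probe sets. Of these probe sets, 11 read the 7 metallothionein genes, and 3 each read MTF1 and SLC30A1. No probe set carried several MT1 or MT2 symbols.

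Gene expression was measured on 6 Affymetrix U133 Plus 2.0 arrays. The 3 sh-Ctrl arrays came from cells infected with lentivirus carrying a scrambled short hairpin RNA (shRNA), and the 3 sh-PRLR arrays from cells infected with shRNA against PRLR, the prolactin receptor. All cells had been selected with puromycin, and the labels call the arrays of a group biological replicates. The labels do not say whether the infected cells were a pool or a clone, nor how many shRNA sequences were used.

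Excess zinc is sensed by MTF1, a zinc finger transcription factor that binds metal response elements in the promoters of metallothionein genes and of SLC30A1. Metallothioneins then hold the metal, and SLC30A1 pumps zinc out of the cell. Metallothionein genes also respond to copper, cadmium, glucocorticoids and oxidative stress.

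The 7 metallothionein members lie in 1 cluster on chromosome 16. In RefSeq (GRCh38.p14) the protein-coding order of that cluster is MT4, MT3, MT2A, MT1E, MT1M, MT1A, MT1B, MT1F, MT1G, MT1H and MT1X. The RefSeq promoter table held 5 of the 9 members and lacked MT1E, MT1F, MT1G and MT1M, so the largest falls are not among those shown. The promoters below are shown because MTF1 acts through the metal response element, and members with and without a fall can be set side by side. Each line is the 250 bases before the annotated start, 5′ to 3′ on the gene's strand. Capitals mark matches, on either strand, to the core of the metal response element, searched as TGCACNC and TGCGCNC. The first 3 genes fell in sh-PRLR cells, and SLC30A1 did not pass the test in either direction. The positions are chr16:56608334-56608583 on the plus strand for MT2A, chr16:56669564-56669813 on the plus strand for MT1H, chr16:56682220-56682469 on the plus strand for MT1X and chr1:211579162-211579411 on the minus strand for SLC30A1, all in GRCh38.p14.
MT2A: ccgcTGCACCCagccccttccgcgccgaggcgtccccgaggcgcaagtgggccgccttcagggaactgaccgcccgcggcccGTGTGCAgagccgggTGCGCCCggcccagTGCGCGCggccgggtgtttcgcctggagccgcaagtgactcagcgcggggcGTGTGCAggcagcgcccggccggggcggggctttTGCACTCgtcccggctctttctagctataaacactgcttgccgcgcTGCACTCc
MT1H: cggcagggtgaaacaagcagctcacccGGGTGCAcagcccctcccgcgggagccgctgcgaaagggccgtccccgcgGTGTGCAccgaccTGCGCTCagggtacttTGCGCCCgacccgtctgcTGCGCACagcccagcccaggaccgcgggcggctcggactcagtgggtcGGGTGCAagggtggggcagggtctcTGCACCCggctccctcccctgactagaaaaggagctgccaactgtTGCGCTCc
MT1X: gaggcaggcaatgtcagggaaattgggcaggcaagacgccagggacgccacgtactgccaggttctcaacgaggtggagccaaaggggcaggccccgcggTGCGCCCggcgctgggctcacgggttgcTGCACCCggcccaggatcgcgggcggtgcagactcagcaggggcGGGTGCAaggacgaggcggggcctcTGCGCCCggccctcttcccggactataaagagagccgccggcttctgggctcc
SLC30A1: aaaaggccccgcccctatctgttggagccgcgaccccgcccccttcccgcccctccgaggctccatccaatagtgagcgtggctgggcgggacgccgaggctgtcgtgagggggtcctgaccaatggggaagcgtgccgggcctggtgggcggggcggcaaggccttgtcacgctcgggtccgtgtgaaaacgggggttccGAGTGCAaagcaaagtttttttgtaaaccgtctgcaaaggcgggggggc

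In the 300-base window of the table, which also holds 50 bases after the start, MT2A and MT1H each had 8 matches, MT1X had 4, SLC30A1 had 2 and MTF1 had 0. Of 35116 promoters in the table, 29.6% had at least 1 match in that window, 8.6% had at least 2, 0.601% had at least 4 and 0.0199% had at least 8. Of the bases shown, 7 matches fall in MT2A, 8 in MT1H, 4 in MT1X and 1 in SLC30A1. The 2 spellings of the core cannot match the same bases on 1 strand. A match describes the letters and does not show binding, and whether the number of matches goes with a fall was not tested.

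**Figure D1:**
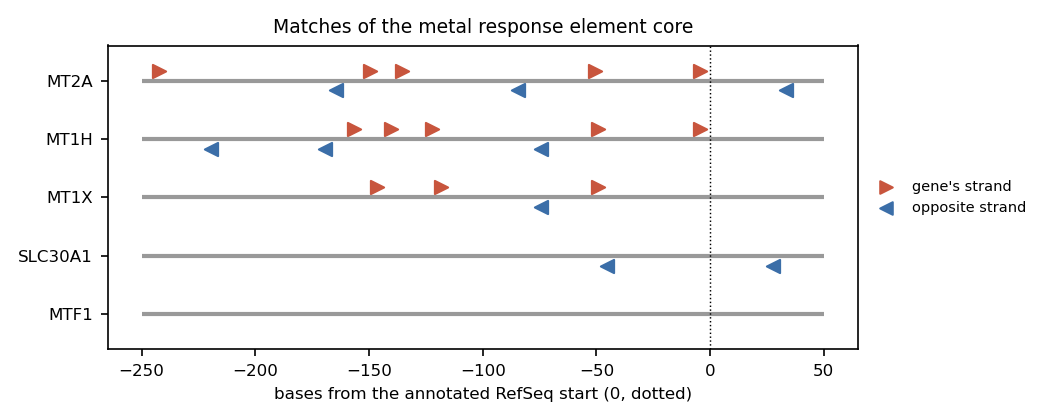
Matches of the metal response element core by distance from the RefSeq start, in bases, for the 5 members with a promoter in the table. Red arrowheads point along the gene's strand and blue ones along the opposite strand. MT2A and MT1H carry 8 each, MT1X 4, SLC30A1 2 and MTF1 0.

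All values below are log2 levels, and differences are sh-PRLR minus sh-Ctrl on that scale. Tests are limma with variance that depends on intensity, with Benjamini-Hochberg adjustment over all 54613 probe sets that are no array controls, and a threshold of 0.05. Errors are SD over 3 arrays unless named as SE. Only 3 arrays a group stand behind each value, which limits its precision.

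Metallothionein transcripts were lower in sh-PRLR cells. Of the 11 metallothionein probe sets, 9 fell and 0 rose, while 3.54% of all probe sets passed, 1.92% as falls and 1.62% as rises (1047 and 884 probe sets, against 378 and 192 with each array centred on its median). The falls ran from -0.80 for MT1F to -0.36 for MT1G, that is 1.74-fold to 1.28-fold lower. They were at probe sets annotated to MT2A and 5 of the 6 MT1 members. All 9 are of a kind that can bind transcripts of more than 1 gene, so which of these genes fell is uncertain. The probe set of MT1M and the second one of MT1G read near the array's floor and did not pass. SLC30A1 and MTF1 did not pass at any of their 6 probe sets. With limma's default variance model, which pools dim and bright probe sets, 0 of 54613 probe sets passed (0%), members included, and 5985 (11%) had an unadjusted p under 0.05.

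Averaged over the 9 probe sets that fell, the deviation from the sh-Ctrl mean was -0.04, 0.06 and -0.02 in the sh-Ctrl arrays and -0.59, -0.56 and -0.59 in the sh-PRLR arrays. These averages hold only probe sets that passed, which favours a small spread within groups, and are a description. Within the groups the same probe sets had a median Pearson correlation of -0.0063 over 36 pairs (lowest -0.92, highest 0.84, 6 arrays as deviations from their group mean).

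Among the probe sets that passed, those of MT1F showed the largest falls. Probe set 217165_x_at gave 12.53, 12.56 and 12.52 on the control arrays, against 11.81, 11.70 and 11.69 on the sh-PRLR arrays (difference -0.80, SE 0.05, limma adjusted p = 4.31e-05). Its second probe set, 213629_x_at, read 11.30, 11.37 and 11.34 against 10.57, 10.55 and 10.52 (difference -0.79, SE 0.06, limma adjusted p = 9.28e-05). The groups did not overlap at either probe set, and the spread within each group was far smaller than the difference.

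MT1E, the next in size among the members that passed, also fell at both of its probe sets. Probe set 212859_x_at gave 13.56, 13.64 and 13.74 on the control arrays, against 13.00, 12.95 and 12.85 on the sh-PRLR arrays (difference -0.71, SE 0.06, limma adjusted p = 0.000129). The values of 216336_x_at were 12.36, 12.69 and 12.64 against 11.71, 12.00 and 12.10 (difference -0.62, SE 0.11, limma adjusted p = 0.00967). The groups were apart at both, with more scatter at the second. Without sh-Ctrl replicate 2 or sh-Ctrl replicate 3 the second probe set no longer passed (limma adjusted p = 0.0585 and 0.0520).

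MT1X, which lies last in the cluster, fell by close to a common amount at its probe sets. Probe set 208581_x_at gave 13.48, 13.41 and 13.39 in control cells, against 13.01, 12.96 and 12.94 after knockdown (difference -0.45, SE 0.04, limma adjusted p = 0.000388). Probe set 204326_x_at read 13.07, 13.17 and 13.20 against 12.48, 12.77 and 12.68 (difference -0.50, SE 0.07, limma adjusted p = 0.00350). The target accession given for the latter in the platform annotation is a RefSeq transcript of MT1L, a transcribed pseudogene of the same cluster. The share of each gene in its signal was not tested.

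MT2A, the main isoform in many human tissues and first of the members along the cluster, fell from 13.91, 13.95 and 13.90 to 13.46, 13.53 and 13.57 (212185_x_at, difference -0.39, SE 0.04, limma adjusted p = 0.000706). Every sh-PRLR array lay below every sh-Ctrl array.

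MT1H and MT1G, neighbours near the end of the cluster, fell with wider scatter. MT1H gave 12.70, 12.75 and 12.33 in control cells, against 12.21, 11.94 and 11.90 after knockdown (206461_x_at, difference -0.57, SE 0.11, limma adjusted p = 0.0187). The lowest control, sh-Ctrl replicate 3, came close to the highest knockdown array, sh-PRLR replicate 1. MT1G read 11.42, 11.67 and 11.39 against 11.09, 11.23 and 11.09 (204745_x_at, difference -0.36, SE 0.08, limma adjusted p = 0.0397). The call for MT1G was lost when any 1 of the 6 arrays was left out (limma adjusted p from 0.0571 to 0.148). The call for MT1H was lost without replicate 1 or 2 of sh-Ctrl and without replicate 2 or 3 of sh-PRLR (0.0797 to 0.0941). Both calls were also lost when each array was centred on its median (limma adjusted p = 0.155 for MT1G and 0.0575 for MT1H).

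The other metallothionein readings lay below 4.99, the level under which 40% of all probe sets fall. MT1M, an isoform found in few tissues, gave 5.29, 4.03 and 2.65 in control cells, against -0.62, 1.19 and 1.04 after knockdown (217546_at). The groups did not overlap, but the difference of -3.45 had an SE of 0.97 and did not pass (limma adjusted p = 0.0891). The second probe set of MT1G, 210472_at, read 4.44, 4.59 and 5.16 against 3.21, 1.14 and 4.16 (difference -1.89, SE 0.91, limma adjusted p = 0.369). At this level the median SD within groups was 1.12, against 0.07 among probe sets at least as bright as the dimmest metallothionein probe set that fell. The sizes of these 2 differences are therefore uncertain.

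At all 11 metallothionein probe sets the 3 sh-PRLR values lay below the 3 sh-Ctrl values. Of all probe sets, 10.3% had their groups apart in that direction and 10.3% in the other. The 9 probe sets that fell are bright, from 10.94 upward in mean level. Among the 5098 probe sets at least that bright, 6.85% fell. All 9 are named _x_at, which in Affymetrix's naming marks probes that can bind transcripts of more than 1 gene. The metallothionein genes are close in sequence, so the share of each gene in the 9 readings is uncertain, and the readings cannot be counted as 9 separate results. The 2 probe sets not named _x_at, of MT1M and MT1G, are the dim ones that did not pass. For MT1G that probe set, 210472_at, had a sh-Ctrl mean of 4.73, against 11.49 at 204745_x_at. Which genes give the brighter signal was not tested.

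**Figure D2:**
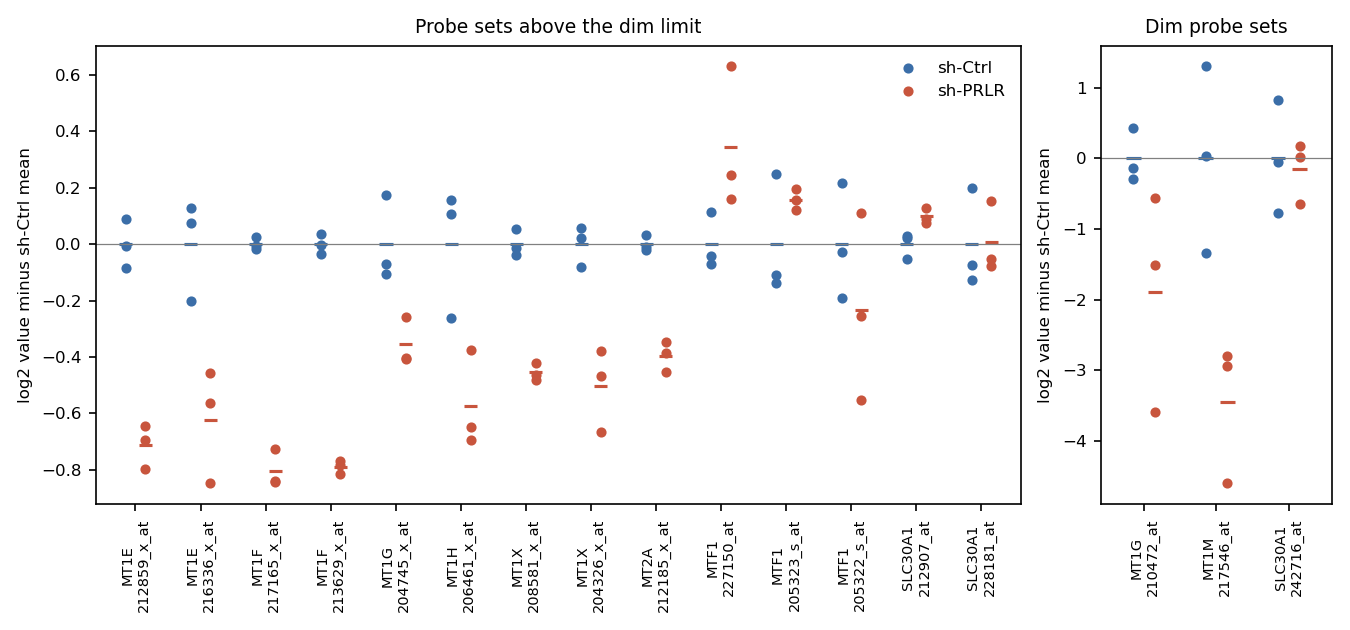
The log2 value of each array minus the sh-Ctrl mean of its probe set, for the 17 member probe sets, with points for arrays and short lines for group means. The left panel holds 14 probe sets with a mean above the level of 4.99 and the right panel, on its own scale, the 3 with a mean below it. All sh-PRLR points of the 11 metallothionein probe sets lie below the sh-Ctrl points, while those of SLC30A1 and MTF1 overlap them, except at 227150_at and 212907_at, where they lie above.

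The log2 ratio of MT1F (217165_x_at) to MT1G (204745_x_at) within an array was 1.11, 0.89 and 1.13 in control cells, against 0.72, 0.46 and 0.61 after knockdown. These are the largest and the smallest of the 9 falls and were chosen for that, so the values are a description, and whether the falls differ in size was not tested.

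SLC30A1, the exporter that MTF1 induces together with metallothioneins, did not pass in either direction, and its difference from their changes was not tested. Its brightest probe set, 212907_at, gave 11.70, 11.62 and 11.71 in control cells, against 11.77, 11.81 and 11.75 after knockdown. Here the sh-PRLR arrays were the higher ones, without overlap, by 0.10 (SE 0.05, limma adjusted p = 0.446). Probe set 228181_at read 9.72, 9.78 and 10.05 against 9.77, 9.80 and 10.01 (difference 0.0075, SE 0.11, limma adjusted p = 0.987), and the groups overlapped throughout. The third, 242716_at, lay below the level of 4.99 at 0.85, 2.46 and 1.58 against 0.98, 1.65 and 1.81 (difference -0.15, limma adjusted p = 0.962).

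MTF1, the zinc sensor itself, gave mixed readings. Probe set 227150_at gave 9.55, 9.39 and 9.36 in control cells, against 9.60, 10.06 and 9.68 after knockdown, apart without overlap, with a difference of 0.35 that did not pass (SE 0.12, limma adjusted p = 0.190). Readings of 205323_s_at were 9.18, 9.54 and 9.15 against 9.44, 9.48 and 9.41 (difference 0.16, limma adjusted p = 0.590). Those of 205322_s_at were 8.03, 7.63 and 7.79 against 7.93, 7.56 and 7.27 (difference -0.23, limma adjusted p = 0.661). Both of these overlapped between groups, and they pointed opposite ways. Of the 6 probe sets of SLC30A1 and MTF1, 0 passed limma, 1 had an unadjusted p under 0.05, and with default settings 0 did either.

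**Figure D3:**
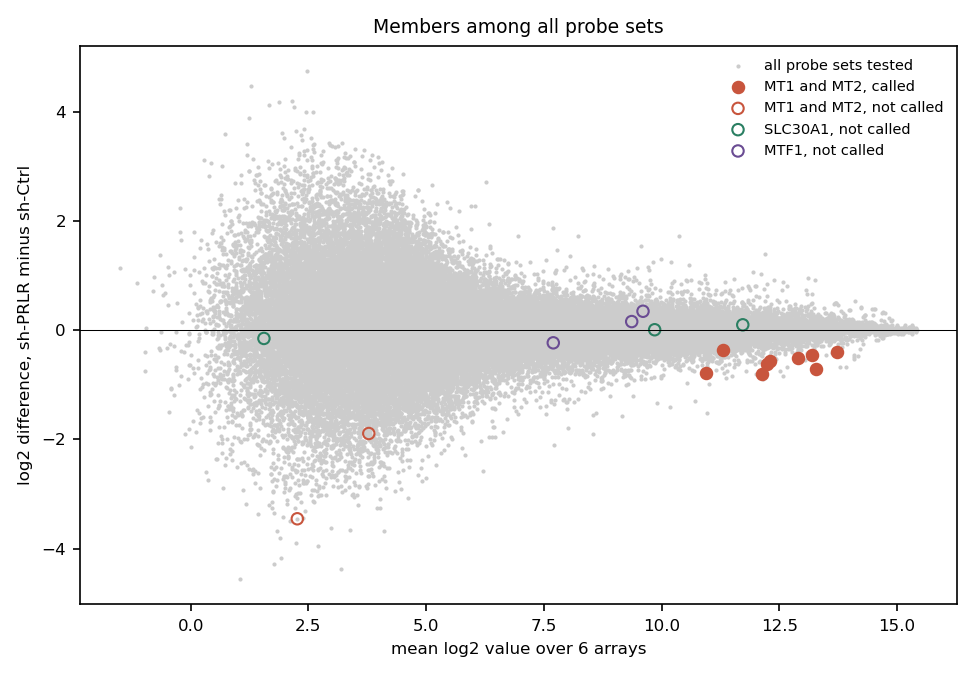
Mean log2 level over 6 arrays against the log2 difference, sh-PRLR minus sh-Ctrl, for 54613 probe sets (grey) and the 17 members. Filled points passed limma with intensity-dependent variance and open points did not. The 9 filled metallothionein points lie below 0 at levels from 10.94 upward, where the grey points scatter least.

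Other metallothioneins outside the members pointed the same way. MT1HL1, an MT1 copy on another chromosome than the cluster, fell from 13.41, 13.39 and 13.46 to 13.03, 13.05 and 13.08 (211456_x_at, difference -0.37, SE 0.04, limma adjusted p = 0.00117). Like the members that fell it is read by a probe set of the _x_at kind, so transcripts of the cluster may share in its signal. This reading cannot be counted as separate from those of the members. With each array centred on its median it did not pass (limma adjusted p = 0.0629). MT3, a brain isoform first known as growth inhibitory factor, fell from 6.62, 6.85 and 6.97 to 5.14, 4.38 and 5.88 (205970_at, difference -1.68, SE 0.39, limma adjusted p = 0.0429). Its call was lost without any 1 of the arrays other than sh-PRLR replicate 3. MT4 read 3.73 ± 0.92 against 3.42 ± 0.86 and did not pass. These 3 were the measured ones of 11 listed, and 2 of them fell, against 3.23% of all 19775 genes when each is taken at its brightest probe set. Their median difference was -0.37, against -0.0013 for all genes.

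Genes on either side of the cluster were read as well. Of the 5 nearest measured protein-coding genes on each side, taken from RefSeq order after the member values were seen, 0 fell by limma (also 0 at an unadjusted p under 0.05) and 2 rose, against 3.23% of all genes that fell and 2.45% that rose. In 10 genes a count of 0 falls does not stand apart from the share over all genes. Their median difference was -0.0047. Among them CETP, CES5A, SLC12A3 and GNAO1 were dim, with SE from 0.70 to 0.91, so falls of the size called in the cluster could not be read there. On the side of MT4, BBS2, a gene of the primary cilium, was at 10.28 ± 0.03 in control cells, against 10.24 ± 0.02 after knockdown, and OGFOD1, a ribosomal prolyl hydroxylase, read 11.84 ± 0.02 and 11.85 ± 0.11. On the side of MT1X, the nuclear pore gene NUP93 read 9.85 ± 0.13 and 9.77 ± 0.04. The genes that rose were HERPUD1, of the endoplasmic reticulum stress response (0.21, limma adjusted p = 0.0429, lost without any 1 array other than sh-Ctrl replicate 3), and NLRC5, which turns on MHC class I genes (1.47, limma adjusted p = 0.000934).

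Zinc importers of the SLC39 family, which carry zinc into the cytosol, held 2 falls and 1 rise among 14 measured genes, with a median difference of 0.03, where 3.23% of all genes fell and 2.45% rose. SLC39A8, an importer of zinc, manganese and cadmium, fell from 10.70, 10.65 and 10.80 to 10.15, 9.97 and 10.09 (209267_s_at, difference -0.65, SE 0.08, limma adjusted p = 0.00154). A second of its 6 probe sets, 219869_s_at, fell as well (-0.44, limma adjusted p = 0.0243). The others did not pass and pointed both ways, with -0.16 for 216504_s_at, 0.17 for 228945_s_at, -0.86 for 209266_s_at and 0.12 for 222935_x_at. At 209267_s_at SLC39A8 passed without each of the 6 arrays in turn. SLC39A10, also an importer at the cell surface, rose from 9.62, 9.64 and 9.62 to 9.86, 10.15 and 10.02 (difference 0.38, SE 0.09, limma adjusted p = 0.0446), a call that held only without sh-PRLR replicate 1 when 1 array was left out. SLC39A12, known from brain, fell from 7.54 ± 0.10 to 6.55 ± 0.09 (limma adjusted p = 0.0146), and did not pass without any 1 sh-Ctrl array.

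Among the other zinc exporters of the SLC30 family, 1 of 9 rose and 0 fell by limma, with a median difference of 0.20, counts too small to stand apart from the 2.45% and 3.23% of all genes. SLC30A4, an exporter into vesicles, was the 1 lower at an unadjusted p under 0.05, from 8.95 ± 0.03 to 8.57 ± 0.15, without passing (limma adjusted p = 0.105). SLC30A6, which loads zinc into the secretory pathway, gave 10.63, 10.66 and 10.69 in control cells, against 10.98, 10.91 and 10.90 after knockdown (difference 0.27, SE 0.06, limma adjusted p = 0.0393). That call, at 226161_at, was lost without any 1 array. The other probe sets of SLC30A6 did not pass and pointed both ways, with -0.07 for 243643_x_at, -0.86 for 226162_at and 0.85 for 220814_at. A second probe set of SLC30A9, 229500_at, fell (-0.32, limma adjusted p = 0.0387).

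Copper is the other metal that metallothioneins bind. Of 11 genes of copper transport and delivery 1 rose and 1 fell, with a median of -0.05, and single calls among 11 genes are not far from the 2.45% and 3.23% of all genes. ATOX1, the copper chaperone of the secretory pathway, rose from 11.15 ± 0.03 to 11.44 ± 0.04 (limma adjusted p = 0.0189), and COMMD1, a copper trafficking protein, fell from 11.18 ± 0.02 to 10.86 ± 0.09 (limma adjusted p = 0.0209). ATOX1 passed without 2 of the 6 arrays in turn, those being sh-Ctrl replicate 3 and sh-PRLR replicate 1, and COMMD1 only without sh-PRLR replicate 1.

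Of 10 listed genes that metals and oxidants induce beside metallothioneins, 8 were measured. The chaperone genes HSPA1A and HSPA1B had no probe set of their symbol alone. Of the 8, 7 rose and 0 fell by limma, with a median of 0.52, against 2.45% of all genes that rose and 3.23% that fell. All 8 lay above the median level of all probe sets. Among the 5098 brightest probe sets 6.85% fell, against 1.92% of all, and the share of rises among bright ones was not computed. The list was not tested against the metallothioneins. The chaperone gene DNAJB1 was lower at an unadjusted p under 0.05 (-0.26) without passing (limma adjusted p = 0.0505). HMOX1, heme oxygenase, rose from 9.46, 9.66 and 9.59 to 10.92, 10.85 and 10.71 (difference 1.25, SE 0.08, limma adjusted p = 4.87e-05). GCLM and GCLC, which encode the subunits of glutamate-cysteine ligase, rose by 0.65 and 0.54, and the sulfiredoxin gene SRXN1 rose by 0.73 (limma adjusted p = 4.87e-05, 0.000148 and 0.000369). These 4 passed without each of the 6 arrays in turn and with arrays centred on their medians. With that centring TXNRD1, SLC7A11 and NQO1, the other rises, did not pass (limma adjusted p = 0.190, 0.0819 and 0.604). Without 1 array TXNRD1 and SLC7A11 passed each time, and NQO1, read at 210519_s_at, only without sh-Ctrl replicate 3. The NQO1 probe sets 201467_s_at and 201468_s_at rose as well (0.38 and 0.32, limma adjusted p = 0.00197 and 0.000744).

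Glucocorticoids induce MT2A and several well-known targets. Of 9 such targets measured, 1 rose and 1 fell, with a median of 0.12, where 2.45% of all genes rose and 3.23% fell. ERRFI1, a feedback inhibitor of EGFR, rose from 13.52 ± 0.01 to 13.97 ± 0.04 (limma adjusted p = 0.000177), and the kinase gene SGK1 fell from 10.25 ± 0.14 to 9.86 ± 0.07 (limma adjusted p = 0.0401), a call lost without any 1 array. A second probe set of KLF9, 203542_s_at, rose (0.44, limma adjusted p = 0.0190), while its brightest one did not pass. At an unadjusted p under 0.05, FKBP5 was lower (-0.30), and DUSP1 and the brightest KLF9 probe set were higher (0.38 and 0.41). None of these passed (limma adjusted p = 0.0552, 0.113 and 0.0769). Of the 17 genes that passed in these related lists, 7 also did so with arrays centred on their medians, namely SLC39A8, SLC39A12, ERRFI1, HMOX1, GCLM, GCLC and SRXN1, and 0 with default settings.

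**Figure D4:**
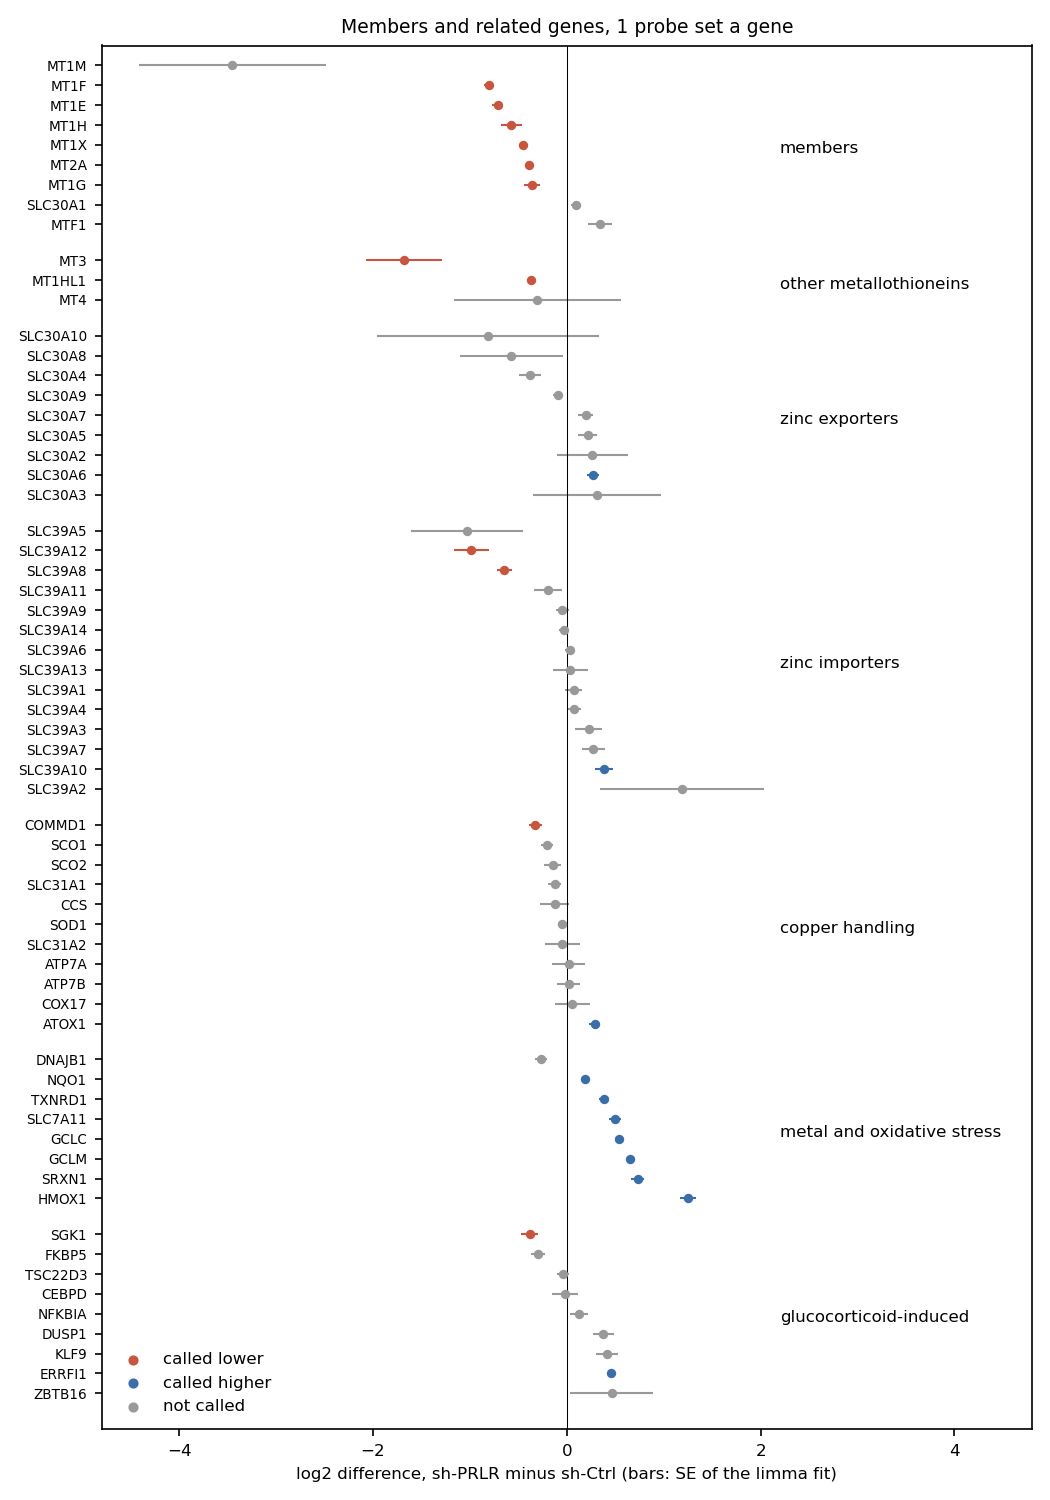
Log2 difference, sh-PRLR minus sh-Ctrl, for the members and the genes of 6 related lists, each at its probe set with the highest mean. Bars are the SE of the limma fit, red marks genes that fell, blue genes that rose and grey genes that did not pass. Metallothioneins lie to the left of 0 and 7 of 8 measured genes of the metal and oxidative stress list to the right.

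Among 12129 other genes above the median level of all probe sets, DMTN (Pearson r = 0.9998), GINS2 (0.9996) and EFHD1 (0.998) had the pattern most like MT2A over the 6 arrays. The difference was -0.50 for DMTN, which did not pass (limma adjusted p = 0.0605), and -0.91 for GINS2 and -1.26 for EFHD1, which fell (limma adjusted p = 0.000640 and 0.00142). Correlation above 0.9 was reached by 7.15% of these genes. For SLC30A1 (212907_at) the most like were CYRIA (0.993), DALRD3 (0.992) and BCDIN3D-AS1 (0.984), with 1.68% above 0.9.

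Of the 7 probe sets of PRLR, the targeted gene, all had a lower mean in sh-PRLR, by -0.18 to -1.82. Of these 7, 0 passed limma (smallest adjusted p = 0.107), with 2 at an unadjusted p under 0.05. With default settings 3 had an unadjusted p under 0.05 and 0 passed. All 7 were dim, at the 25th to 47th percentile of mean level, and their highest sh-Ctrl mean was 6.14. A loss of PRLR transcript is therefore not established by these arrays, and knockdown here names the shRNA that the cells received. Of 7 epithelial markers, 6 had a mean over all arrays above the median level of all probe sets. Among sh-Ctrl arrays they ran from KRT18 at 15.29 ± 0.07 to KRT7 at 7.49 ± 0.22. EPCAM read 14.20 ± 0.04 there and CDH1 14.00 ± 0.04. The mean of MUC1 over all arrays was just below that median. Control cells alone were above it for MUC1 (6.33 ± 0.16), while knockdown cells were below it with wide scatter (5.03 ± 1.66). That difference did not pass (limma adjusted p = 0.412). CDH1 fell slightly (-0.17, limma adjusted p = 0.0354, lost without any 1 array). Of 21 measured markers of acinar cells, fibroblasts, endothelium and leukocytes, 6 also lay above the median of 5.79 in mean level. The highest of them was COL1A1 at 7.79 ± 0.15 in sh-Ctrl. Among the 21, 0 passed limma, 2 had an unadjusted p under 0.05, and 0 passed with default settings. Correlation between arrays ran from 0.928 to 0.936 over all probe sets, and no array stood apart.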

How the data were processed

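The authors deposited 1 log2 expression value for each probe set on each array. The submitters' processing notes list MAS5, RMA and affy, with no role or version. On the linear scale every array had a mean of 500 after trimming 2% of values, which MAS5 scaling would give, so no further normalisation was applied. Of 54675 probe sets, 62 array controls were left out. Symbols came from the platform annotation, and promoters and gene order from RefSeq (GRCh38.p14).

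Groups were compared over 54613 probe sets with limma 3.58.1 in R 4.3.3 (lmFit, eBayes with trend and robust, two-sided, Benjamini-Hochberg, threshold 0.05). Replicate numbers are shared by the groups, but arrays of the same number did not deviate together (correlations -0.0042, 0.0042 and -0.0073), and the fit has no block. The fit was also run on simulated data as a check of the code, which does not bear on the calls reported here. Figures used Python 3.11.15 and matplotlib 3.10.9.

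Members, lists and the variance model were chosen with earlier results of these data known. Named were all members, at most 4 genes called in a related list, the 3 genes most like MT2A and SLC30A1, and PRLR. Named beyond that rule, after their values were seen, were NQO1, TXNRD1, SLC7A11, DNAJB1, SLC30A4, SLC30A9, KLF9, FKBP5, DUSP1, MT4, COL1A1, the neighbours of the cluster and the epithelial markers. The other settings are given in the closing section. Protein sequences were not used here.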

Additional observations from a re-analysis of the deposited data

How the results depend on the processing

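The 9 falls among the member probe sets were 9 with trend but no robust fit, quantile normalisation, the filter on dim probe sets, 1-symbol probe sets alone and the replicate block. They were 7 with median centring, 3 when values were floored at a linear 32 (the 2 MT1F probe sets and 208581_x_at of MT1X), 0 with default settings, and from 6 to 8 without 1 array. Over all probe sets 1931 passed, against 0 with default settings, 570 with median centring (378 lower and 192 higher, against 1047 and 884), 1269 with the replicate block, 107 with floored values, and 756 to 1534 without 1 array. The member probe sets without overlap numbered 13, and from 11 to 14 over all settings. Of 54 genes in the related lists 17 passed, against 0 with default settings, 7 with median centring, 11 with the replicate block, and 9 to 14 without 1 array, a setting added after seeing the data. For SLC30A1, whose differences never passed, 228181_at turned to -0.027 with median centring, and without 1 array it ran from -0.066 to 0.11, below 0 without replicate 1 or 2 of sh-Ctrl and without replicate 3 of sh-PRLR. Its dim probe set 242716_at ran from -0.54 to 0.26 without 1 array, above 0 without sh-PRLR replicate 1 and also without sh-Ctrl replicate 2. Without 1 array the MTF1 differences ran from 0.20 (without sh-PRLR replicate 2) to 0.44 for 227150_at, from 0.088 to 0.28 for 205323_s_at and from -0.40 to -0.072 for 205322_s_at. The metallothionein probe sets were lower in every setting run. With default settings the adjusted p of the 9 ran from 0.155 to 0.421. The causes of these changes were not tested. Median centring moved the median difference of all probe sets from 0.015 to -0.019. Precision is limited by 3 arrays a group.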
